A study of Mus musculus with 2 samples.

Results

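The CD34 class was the set of bone marrow progenitors to which the deposited cell annotation gives the name of the Cd34 gene, and it held 1755 of 14795 mouse cells. There were 679 such cells among 7889 in the library labelled Runx1 KO and 1076 among 6906 in the Control library. Cells had been sorted from crushed hind-limb bones as Lineage-, c-Kit+ and Sca1-, a gate for progenitors already committed to myeloid, erythroid or megakaryocyte fates, and their messenger RNA was tagged at its 3′ end in droplets. Both libraries are labelled as strain C57BL/6. The first carries the genotype Runx1 KO, and the Control library mixed marrow of 1 Runx1f/f mouse with marrow of 1 Runx1f/- mouse, the second of which carried a germline mutation of a single Runx1 allele beside a floxed one. The recombinase, the deleted part of the gene and the number of mice in the library labelled Runx1 KO are not stated in the sources used here, and a description field speaks of embryos where the tissue and extraction fields name marrow. With 1 library per genotype there is no spread between mice to set a difference against, so no test is given, and all intervals are 95% intervals that cover counting error only.

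Early progenitors carry low levels of transcripts of several lineages at once, a state called lineage priming, before a single program takes over. CD34 is a surface glycoprotein of hematopoietic progenitors, and FLT3, CD27 and SATB1 mark those with myeloid and lymphoid potential. RUNX1 is a DNA-binding transcription factor that works with its partner CBFB, and megakaryocytes, lymphocytes and basophils depend on it in the mouse.

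The class made up a smaller part of the library labelled Runx1 KO, at 8.61% of cells against 15.6% in Control, a ratio of 0.552 (0.501 to 0.609). The Pf4 class took 22.6% and 3.21% of cells, the Prss34 class 0.0127% and 4.88%, and the Ly86 class 7.01% and 19.2%. With the Pf4 and Prss34 classes set aside, the CD34 shares were 11.1% and 17.0%. The class held 11445926 UMIs (unique molecular identifiers, each a counted transcript) in the library labelled Runx1 KO, with a median of 14878 per cell, and 22491402 in Control, with a median of 19390. Median mitochondrial content was 4.80% and 5.03% of UMIs. The libraries shared 13 cell barcodes, of which 0 lay in the class in the library labelled Runx1 KO and 3 in the class in Control. UMIs were summed over the class and are given as CPM (counts per 1000000 summed UMIs).

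The targeted gene itself was more abundant in the library labelled Runx1 KO. Runx1 (chromosome 16, 92601466 to 92826149, minus strand) had 586 CPM there and 214 CPM in Control, a ratio of 2.73 (2.63 to 2.84). After each cell was thinned to 5000 UMIs, 92.1% of class cells in the library labelled Runx1 KO had a Runx1 UMI, against 62.1% in Control. In the Hba-a2 class, which the globin gene of its name marks as erythroid, these shares were 35.4% and 12.9%; that class serves here as the measure of free RNA, and its median depth before thinning was 37146 UMIs in the library labelled Runx1 KO and 51294 in Control. A 3′ tag outside the deleted part does not check the deletion, so the genotype rests on its label. Of the other Runx genes, Runx2 had 50.4 and 40.5 CPM, Runx3 133 and 104 CPM, and the partner gene Cbfb 62.0 and 78.0 CPM in the library labelled Runx1 KO and in Control, all within 1.5-fold. The motif TGTGGT, the core letters RUNX proteins bind, was looked for on both strands of RefSeq promoter windows (GRCm38.p6, 250 bases before to 50 after a start), where 16.8% of 32851 windows held it. Runx1 has 2 such windows, at its distal and its proximal start, and both are shown because their gene is the one targeted; capitals mark the motif or its complement ACCACA.
Runx1 distal, chr16:92826025-92826324, minus strand: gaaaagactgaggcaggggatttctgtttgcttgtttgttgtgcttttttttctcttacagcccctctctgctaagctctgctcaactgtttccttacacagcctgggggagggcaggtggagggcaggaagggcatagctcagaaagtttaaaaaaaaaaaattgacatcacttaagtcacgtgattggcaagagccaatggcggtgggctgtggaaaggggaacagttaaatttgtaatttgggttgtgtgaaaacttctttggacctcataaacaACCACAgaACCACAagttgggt
Runx1 proximal, chr16:92697280-92697579, minus strand: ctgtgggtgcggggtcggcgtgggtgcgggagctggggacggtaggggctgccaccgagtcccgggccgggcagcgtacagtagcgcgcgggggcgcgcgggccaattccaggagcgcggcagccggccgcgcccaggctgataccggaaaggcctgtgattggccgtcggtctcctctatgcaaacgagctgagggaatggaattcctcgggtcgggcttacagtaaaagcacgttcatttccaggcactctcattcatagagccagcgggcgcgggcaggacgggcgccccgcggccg
The distal window held 2 matches just after the start and the proximal window held 0. A match describes letters and not a bound site, and the 3′ tags do not tell which start a transcript came from.

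The markers that go with early progenitors were present, and 3 of 5 were highest in the class. Classes with at least 200 cells in each library were compared, which set CD34 beside 5 others: Car1, Pf4, Ly86, Gstm1/CD63 and Hba-a2. Cd34 had 308 CPM in the library labelled Runx1 KO and 376 in Control, above the Ly86 class at 279 and 312 CPM and the Gstm1/CD63 class at 156 and 143 CPM. Cd27, a receptor of the tumor necrosis factor receptor family, had 115 and 157 CPM, and Adgrl4, an adhesion receptor, 117 and 107 CPM, both above the other 5 classes in both libraries. Flt3 and Satb1 did not single the class out. Flt3 had 15.99 and 45.7 CPM in the CD34 class against 24.3 and 63.9 CPM in the Ly86 class, and Satb1 had 31.8 and 67.0 CPM against 33.6 and 71.1 CPM. Cd34, Cd27 and Adgrl4 thus go with the name of the class, and Flt3 and Satb1 are shared with the Ly86 class. The class was named from these same cells, so this describes it and does not test its label.

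**Figure D1:**
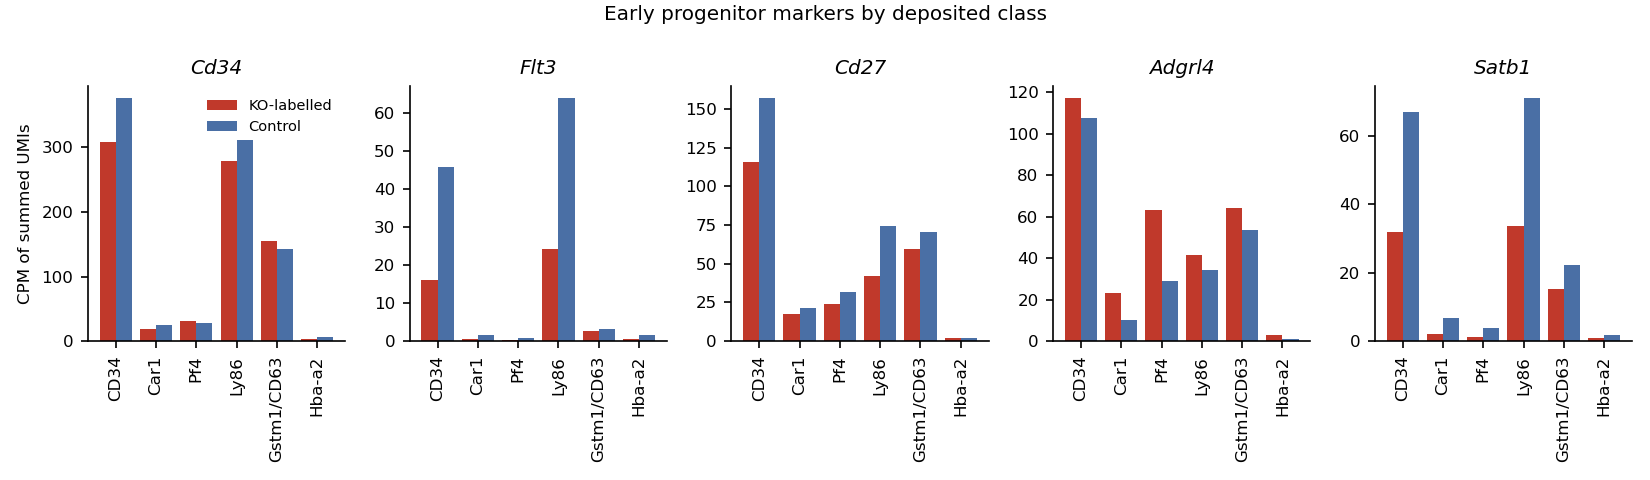
Level of the 5 early progenitor markers in CPM of summed UMIs (vertical axis, each panel on its own scale from 0) in the 6 compared classes, with the library labelled Runx1 KO in red left of Control in blue. Cd34, Cd27 and Adgrl4 are tallest in the CD34 class, whereas Flt3 and Satb1 are tallest in Ly86 and lower in red than in blue.

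Per cell, the same markers were found widely but not evenly. Cd34 had a UMI in 72.3% (68.8 to 75.7) of thinned cells in the library labelled Runx1 KO and in 80.5% (77.9 to 82.9) in Control, against 2.04% and 2.21% in the Hba-a2 class. Cd27 was found in 41.2% and 51.4% of cells and Adgrl4 in 41.5% and 39.1%. Flt3 was found in 6.84% (5.03 to 9.04) of cells in the library labelled Runx1 KO and in 18.3% (15.96 to 20.8) in Control, and Satb1 in 12.6% and 23.7%. Hlf, a stem cell transcription factor gene, was found in 20.8% and 18.9% of cells, with overlapping intervals. Thinning used 658 and 1005 cells that had at least 5000 UMIs.

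**Figure D2:**
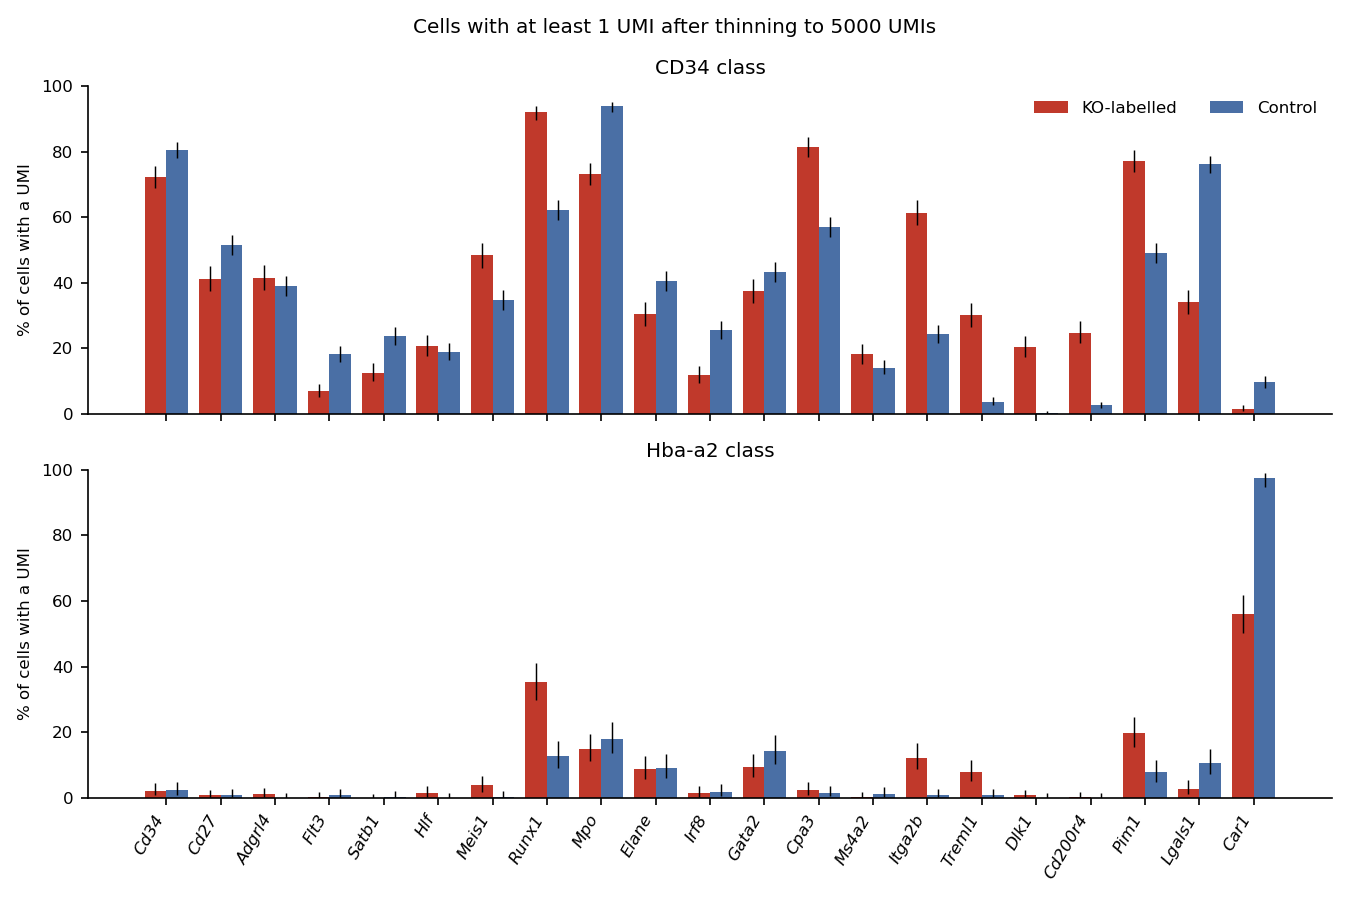
Percent of cells with at least 1 UMI of each gene after thinning to 5000 UMIs per cell, in the CD34 class (upper panel) and the Hba-a2 class (lower panel), with the library labelled Runx1 KO in red left of Control in blue and exact 95% binomial intervals as bars. In the CD34 class Runx1, Cpa3, Itga2b, Treml1 and Dlk1 are found in more cells of the library labelled Runx1 KO, and Mpo, Flt3, Irf8 and Lgals1 in more Control cells.

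Set against the other compared classes of the same library, the CD34 class was led by genes of mast cells and basophils beside the progenitor markers. Of 4475 genes measured in both libraries, 157 (3.51%) were at least 1.5-fold higher in the class and 123 (2.75%) at least 1.5-fold lower, in both; since the class was named from these same cells, this describes it and is no test. A gene counted as measured when it reached 30 CPM on either side and 100 UMIs in all, and ratios were taken after 10 CPM was added to both sides. First in rank was Cpa3, which encodes the mast cell carboxypeptidase (chromosome 3, 20215620 to 20242181), at 900 CPM in the library labelled Runx1 KO and 427 CPM in Control. The Car1 class had 71.1 and 51.0 CPM of Cpa3 and the Gstm1/CD63 class 172 and 135 CPM. Ms4a2, the beta chain of the high-affinity IgE receptor, had 74.0 and 74.9 CPM, against 9.08 and 12.7 CPM in Gstm1/CD63. The small Prss34 class, with too few cells in the library labelled Runx1 KO to be compared, held more of both in Control, at 1922 CPM of Cpa3 and 1013 CPM of Ms4a2.

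The other leading genes were Tespa1, a T cell receptor signalling adaptor gene with 169 and 132 CPM, Ikzf2, the Helios transcription factor gene with 198 and 169 CPM, and Rbpms, an RNA-binding protein gene with 64.6 and 60.9 CPM, each in the library labelled Runx1 KO and in Control. Hmga2, a chromatin protein gene of fetal-type stem cells, had 89.3 and 48.6 CPM, Clec4e, a C-type lectin receptor gene, 59.2 and 34.5 CPM, and Lmo4, a LIM domain cofactor gene, 155 and 277 CPM. Of 18 early progenitor surface genes 11 were measured in this comparison and 8 were at least 1.5-fold higher in the class in both libraries. Of 22 stem-type transcription regulators 14 were measured and 6 were higher. Of all measured genes 3.51% were this much higher in both. The surface list summed to 2157 and 1912 CPM in the CD34 class and 1795 and 1710 CPM in Ly86. In Hba-a2, which is part of the mean of other classes, it summed to 388 and 308 CPM. The stem-type list summed to 2455 and 2437 CPM in the CD34 class and 2422 and 2426 CPM in Car1. Pf4 had 2638 and 2316 CPM of it, so the stem-type sum did not single the CD34 class out. All 9 measured erythroid markers and 4 of 5 megakaryocyte markers were at least 1.5-fold lower in both libraries than the mean of other classes. Of all measured genes 2.75% were. That mean takes in the Car1, Hba-a2 and Pf4 classes, which are high in these markers, so the outcome follows from its makeup. The megakaryocyte list summed to 696 and 205 CPM in the CD34 class. In Ly86 it summed to 162 and 49.8 CPM and in Car1 to 878 and 381 CPM. Compared over 5975 genes, the class in the library labelled Runx1 KO lay nearest to Gstm1/CD63, with a Pearson r across genes of 0.951 against 0.935 for Ly86. In Control the order was the other way, with 0.968 for Ly86 and 0.957 for Gstm1/CD63. The class in the library labelled Runx1 KO and the class in Control had an r of 0.978; genes are not independent and share depth, so these are descriptions.

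Between the libraries, the class carried more transcripts of the 6 measured megakaryocyte markers, of Runx1 and of Cpa3, Pim1 and Socs3 in the library labelled Runx1 KO. It carried fewer of Flt3, Satb1, Irf8, Elane and Mcpt8, while most members of their lists lay within 1.5-fold or went both ways. Of 4663 measured genes 133 (2.85%) were at least 1.5-fold higher there than in Control and 64 (1.37%) at least 1.5-fold lower. These and all later counts past 1.5-fold were taken after 10 CPM was added to both sides. The counting interval lay wholly beyond 1.5-fold for 108 and 39 of them. The median log2 ratio of all measured genes was -0.0015, so the measured genes as a whole were centred near 0. In summed UMIs a change in the mix of cells and a change within each cell cannot be told apart.

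**Figure D3:**
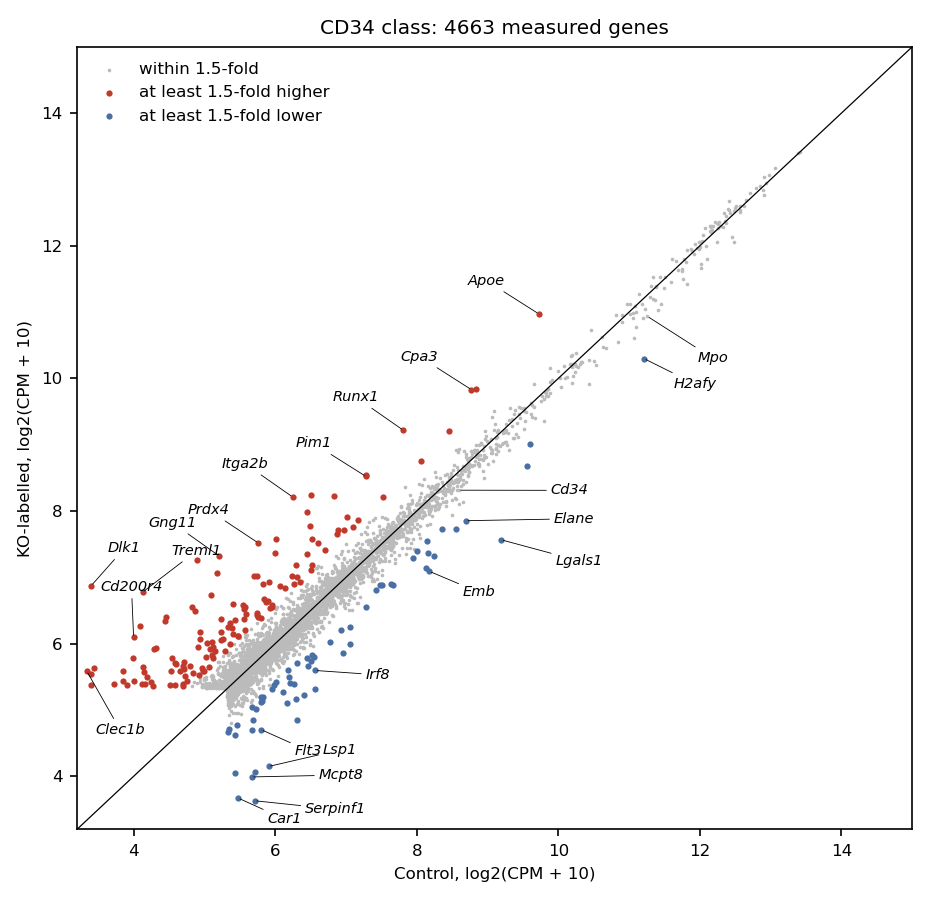
Each point is a measured gene of the CD34 class, with log2(CPM + 10) in the library labelled Runx1 KO on the vertical axis and in Control on the horizontal axis; red and blue points lie at least 1.5-fold above or below the line of equality. Dlk1, Treml1 and Clec1b lie furthest above the line, Serpinf1 and Car1 furthest below it, and Cd34 and Mpo lie in the grey cloud.

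All 6 measured megakaryocyte markers, of 10 in the list, were at least 1.5-fold higher in the library labelled Runx1 KO, with a median log2 ratio of 1.27, where all measured genes had -0.0015 and 2.85% of them were this much higher. Their summed level was 696 CPM there and 205 CPM in Control. Itga2b, the alpha chain of the platelet fibrinogen receptor (chromosome 11, 102453297 to 102470122), had 286 CPM and 65.8 CPM in Control, a ratio of 4.36 (4.09 to 4.63). It was found in 61.4% (57.6 to 65.1) of thinned class cells in the library labelled Runx1 KO and in 24.3% (21.7 to 27.1) in Control, against 12.2% and 0.735% in the Hba-a2 class. Treml1, a receptor of platelet granules (chromosome 17, 48359916 to 48367176), had 99.5 CPM and 7.43 CPM in Control, a ratio of 13.4 (11.4 to 15.9). Rab27b, a secretory GTPase gene, had 33.4 CPM and 6.09 CPM in Control. The tetraspanin gene Cd9 had 119 and 65.4 CPM. The chemokine gene Pf4 had 82.2 and 37.1 CPM in the CD34 class, but it was lower in the library labelled Runx1 KO in the Car1 class, at 102 and 153 CPM, and in the Pf4 class, at 3469 and 5116 CPM. Their levels stayed far below the Pf4 class, where the list summed to 7266 and 7257 CPM.

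Other genes among the 15 highest were not in that list. Clec1b, a platelet-activating lectin receptor, had 434 UMIs (37.9 CPM) in the library labelled Runx1 KO and 2 UMIs (0.0889 CPM) in Control; the ratio of 426 carries a counting interval of 117 to 3532. Gng11, a G protein gamma subunit gene of platelets, had 150 CPM and 26.9 CPM in Control. Jam3, a junctional adhesion molecule gene, had 39.7 CPM and 0.845 CPM in Control, and Rhoj, a small GTPase gene, 36.5 CPM and 0.489 CPM. Gp5, a subunit of the von Willebrand factor receptor, had 66.5 CPM and 6.98 CPM in Control, and was found in 25.5% and 4.88% of thinned class cells against 13.9% and 6.62% in the Hba-a2 class. Clca3a1, Hbb-bt and Prdx4 also ranked among the 15 highest. In the library labelled Runx1 KO a UMI of Clca3a1 was found in 12.3% of class cells and in 19.4% of Hba-a2 class cells, of Hbb-bt, a globin gene, in 13.4% and 29.6%, and of Prdx4 in 50.5% and 52.7%. The Hba-a2 class may express these genes itself, so it gives no measure of free RNA for them. Fam189b, Pcdh7 and Chd7, a chromatin remodeller gene, completed the 15, with ratios of 4.77, 6.01 and 7.62.

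Dlk1 stood first of all. It encodes a transmembrane protein related to Notch ligands and is known from fetal liver and other immature tissues (chromosome 12, 109452823 to 109463336, plus strand). It had 107 CPM (1227 UMIs) in the library labelled Runx1 KO and 0.534 CPM (12 UMIs) in Control, a ratio of 201 (115 to 390). Its UMIs came from 20.4% (17.4 to 23.6) of thinned class cells in the library labelled Runx1 KO, against 0.398% in Control and 0.680% and 0% in the Hba-a2 class; 0 of 272 cells allows a share of up to 1.10%. Among the cells with Dlk1 in the library labelled Runx1 KO, 84.3% also had Itga2b, against 55.5% of those without it, while Mpo was found in 47.8% and 79.8%. In the same library the Pf4 class had 59.6 CPM of Dlk1, the Car1 class 35.05 CPM and cells called Unannotated 159 CPM. Cells with Dlk1 thus had Itga2b more often, and Mpo less often, than the other cells of the class; gene pairs were chosen after their values were seen.

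Cells rich in Mpo and cells rich in Cpa3 both occurred in the class, and their shares differed between the libraries. With at least 5 thinned UMIs as the mark, 24.01% of cells in the library labelled Runx1 KO were high for the granule enzyme gene Mpo alone, 17.2% for Cpa3 alone, 28.4% for both and 30.4% for neither. In Control the shares were 58.8%, 5.47%, 13.7% and 21.99%. Itga2b was found in 52.7% of cells with Mpo and 85.2% of cells without it in the library labelled Runx1 KO, and in 22.6% and 50% in Control. The class was therefore also split at 1000 CPM of Mpo per cell, a division chosen after seeing the data: 347 cells in the library labelled Runx1 KO and 772 in Control lay at or above it, and 332 and 304 below it. Itga2b had a ratio of 3.36 in the cells with more Mpo and 3.53 in those with less, and Runx1 2.70 and 2.45. Treml1 had 10.8 and 8.81. Pf4 did not keep its direction, with a ratio of 3.42 (3.06 to 3.82) in the cells with more Mpo and 0.718 (0.592 to 0.869) in those with less, where it had 41.4 CPM in the library labelled Runx1 KO and 57.7 CPM in Control. Cpa3 had 2.34 and 1.71, and Pim1 2.32 and 2.21. Dlk1 had 22.9 CPM in the cells with more Mpo and 238 CPM in those with less in the library labelled Runx1 KO, against 0.393 and 1.07 CPM in Control.

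Genes of mast cells and basophils split. The list of 8 had 5 measured members, of which 1 was at least 1.5-fold higher and 2 lower, beside 2.85% and 1.37% of all measured genes. The median log2 ratio of the 5 was -0.02, and the 2 lower ones, Mcpt8 and Csrp3, reached 30 CPM in Control only. Cpa3 was 2.11-fold higher (2.05 to 2.16), and a Cpa3 UMI was found in 81.5% of thinned class cells in the library labelled Runx1 KO and 57.0% in Control. Hdc, the histamine-forming enzyme gene, had 134 and 87.6 CPM, and Ms4a2 74.0 and 74.9 CPM. Mcpt8, the basophil protease gene (chromosome 14, 56082166 to 56085273), had 5.85 CPM and 40.8 CPM in Control, a ratio of 0.144 (0.110 to 0.184). Csrp3, a LIM protein gene, had 6.73 CPM and 42.5 CPM in Control. Mcpt8 reached 3818 CPM and Csrp3 581 CPM in the Prss34 class of Control, and few cells of that kind or a low level in many cells cannot be told apart from these sums.

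A pair of neighbouring receptor genes on chromosome 16 reached 30 CPM in the CD34 class alone among the 6 compared classes, and was higher there in the library labelled Runx1 KO. Cd200r4 (44811733 to 44839150), which encodes an activating receptor of the CD200R family, had 58.4 CPM in the library labelled Runx1 KO and 5.96 CPM in Control. Cd200r3 (44943678 to 44981380), a receptor of mouse mast cells and basophils, had 38.1 CPM and 4.45 CPM in Control. With 10 CPM added, the log2 ratio was 2.10 for Cd200r4 and 1.74 for Cd200r3, while the median over the other 5 classes was 0.32 for Cd200r4 and 0.07 for Cd200r3. The added 10 CPM hides ratios at low levels. Without it the ratio of Cd200r4 was 9.80 in CD34, 10.5 in Car1, 9.16 in Gstm1/CD63 and 21.7 in Ly86, where its level was 4.70 CPM in the library labelled Runx1 KO and 0.216 CPM in Control. The CD34 class therefore stood apart in the level of Cd200r4 and not in its ratio. Cd200r4 was found in 24.8% of thinned class cells in the library labelled Runx1 KO and 2.59% in Control, against 0.340% and 0% in the Hba-a2 class. The small Prss34 class of Control held 81.3 CPM of Cd200r3. The family members are alike in sequence, so how reads were shared among them is uncertain.

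Of 9 Pim kinase and cytokine feedback genes 3 were measured and 2, Pim1 and Socs3, were at least 1.5-fold higher, where 2.85% of all measured genes were; the median log2 ratio of the 3 was 1.24. Pim1, a survival kinase induced by cytokines (chromosome 17, 29490753 to 29496112), had 357 CPM in the library labelled Runx1 KO and 146 CPM in Control. It was found in 77.2% and 49.1% of thinned class cells against 19.7% and 7.72% in the Hba-a2 class. The log2 ratio of Pim1 was 1.24 in the CD34 class, below its median of 1.67 over the other 5 classes. Socs3, a feedback inhibitor of cytokine receptors, had 31.5 CPM and 4.89 CPM in Control. The third, Myc, had 151 and 188 CPM. Of 10 measured cytokine receptor genes 2 were higher and 1, Flt3, was lower, against 2.85% higher and 1.37% lower of all measured genes. Csf2rb, the common beta chain of the IL-3, IL-5 and GM-CSF receptors and 1 of the higher genes, had 109 CPM and 46.6 CPM in Control. Kit, the stem cell factor receptor gene that the sort selects for, had 142 and 140 CPM.

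Regulators of the stem and progenitor state lay near all measured genes as a group. Of 15 measured stem-type transcription regulators 1 was at least 1.5-fold higher and 0 lower once 10 CPM was added to both sides. Of all measured genes 2.85% were this much higher and 1.37% lower, and such counts in 15 genes lie near these shares. The median log2 ratio of the 15 was -0.03. Meis1, a homeobox gene of stem cells and megakaryocytes, had 160 CPM in the library labelled Runx1 KO and 93.7 CPM in Control. Gata2 had 116 and 140 CPM, Hoxa7 30.8 and 46.5 CPM and Hlf 44.3 and 41.7 CPM. Hoxa7 was 1.51-fold lower without the added 10 CPM. Among 9 measured megakaryocyte and erythroid factors Zfpm1, the GATA cofactor gene, was past 1.5-fold at 110 and 66.5 CPM, and the median was 0.36. With 1 gene of 9 past 1.5-fold, the list cannot be set apart from that 2.85%. Gfi1b had 32.5 and 19.7 CPM, a ratio of 1.65 that fell under 1.5-fold with 10 CPM added. Of 13 early progenitor surface genes 2 were higher, Cd48 among them, and Flt3 was lower, beside the same 2.85% and 1.37% of all measured genes. Esam, an endothelial and stem cell adhesion gene under the 30 CPM minimum and chosen after its values were seen, had 29.0 CPM and 3.42 CPM in Control, and Slamf1 16.2 CPM and 2.71 CPM.

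Of 20 lymphoid priming genes 10 were measured, of which 3, Flt3, Satb1 and Lsp1, were at least 1.5-fold lower, 7 lay within 1.5-fold and 0 were higher. The median log2 ratio was -0.33, and 1.37% of all measured genes were this much lower. Flt3 (chromosome 5, 147330741 to 147400489) had a ratio of 0.350 (0.297 to 0.410). Satb1, a chromatin organiser of lymphoid cells (chromosome 17, 51736187 to 51833290), had a ratio of 0.475 (0.422 to 0.533), and Lsp1, a leukocyte actin-binding protein gene, had 7.69 CPM in the library labelled Runx1 KO and 49.9 CPM in Control. Dntt, the polymerase gene of early lymphocytes, was under the minimum at 0.961 CPM (11 UMIs) and 11.2 CPM (253 UMIs). Other members were nearer to Control, with Ikzf1 at 58.1 and 73.5 CPM and Mef2c at 144 and 155 CPM. Flt3 was also lower in the Ly86 class, by a log2 ratio of -1.11.

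Of 7 measured myeloid transcription factors 0 were higher and 2, Irf8 and Cebpa, were lower by 1.5-fold with 10 CPM added. Of all measured genes 2.85% were this much higher and 1.37% lower. Irf8, which directs monocyte and dendritic cell fate (chromosome 8, 120736358 to 120756694), had 38.3 CPM in the library labelled Runx1 KO and 84.7 CPM in Control, and was found in 11.9% and 25.5% of thinned class cells. Cebpa, the granulocyte and monocyte factor gene, had 64.0 and 111 CPM, Spi1 176 and 185 CPM and Cebpe 69.1 and 43.6 CPM. Cebpe was 1.59-fold higher without the added 10 CPM. Of 11 primary granule genes, 0 were higher, 3 lower by 1.5-fold and 8 between, with a median log2 ratio of -0.32, against 1.37% lower of all measured genes. Elane, neutrophil elastase, had 221 CPM and 405 CPM in Control, Nkg7 149 CPM and 292 CPM, and Prss57 6.47 CPM and 33.1 CPM. Mpo had 1951 and 2439 CPM and Prtn3 1397 and 1629 CPM. The ratio of Elane was 0.690 in the cells with at least 1000 CPM of Mpo and 1.02 in those below. That of Irf8 was 0.597 and 0.195.

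The genes furthest below Control came from several programs. Serpinf1, which encodes pigment epithelium-derived factor (chromosome 11, 75409769 to 75422701, minus strand), had 2.36 CPM in the library labelled Runx1 KO and 42.3 CPM in Control, a ratio of 0.0557 (0.0365 to 0.0816). Car1, the erythroid carbonic anhydrase gene, had 2.71 CPM and 34.5 CPM in Control; the same gene had 261 and 2034 CPM in the Car1 class. Lgals1, galectin-1 (chromosome 15, 78926725 to 78930465), was found in 34.04% of thinned class cells in the library labelled Runx1 KO and 76.1% in Control. Its ratio was 0.427 in the cells with more Mpo and 0.132 in those with less. Emb, an immunoglobulin-family membrane protein gene, had 126 CPM and 280 CPM in Control, and was 0.620-fold in the cells with more Mpo and 0.0865-fold in those with less. Bcl2, the survival gene, had 47.7 CPM and 114 CPM in Control, and the chemokine receptor gene Cxcr4 24.5 CPM and 61.9 CPM. Clec12a, Atp8b4, Cox6b2 and Hist1h2ae filled the list of 15, with ratios of 0.376, 0.353, 0.367 and 0.440; reads of the last may be shared with other histone genes. H2afy, a histone variant gene chosen after its values were seen, was the most abundant lower gene at 1249 CPM and 2364 CPM in Control.

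Promoter windows were matched for 12 of the 15 highest and 10 of the 15 lowest genes. The motif TGTGGT was in 2 of 12 windows of the highest genes and in 4 of 11 windows of the lowest, where 12.3% of 4739 windows of measured genes held it. The windows of the gene at each end of the ranking and of the basophil protease gene are shown, since those genes are first, last and among the 4 lowest. Capitals again mark the motif or its complement.
Dlk1, chr12:109452573-109452872, plus strand: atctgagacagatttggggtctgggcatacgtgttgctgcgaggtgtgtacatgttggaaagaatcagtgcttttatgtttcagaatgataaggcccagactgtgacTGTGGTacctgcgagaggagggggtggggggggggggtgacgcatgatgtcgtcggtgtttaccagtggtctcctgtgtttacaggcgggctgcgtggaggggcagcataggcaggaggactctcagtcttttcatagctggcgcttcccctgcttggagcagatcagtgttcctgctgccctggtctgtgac
Serpinf1, chr11:75422574-75422873, minus strand: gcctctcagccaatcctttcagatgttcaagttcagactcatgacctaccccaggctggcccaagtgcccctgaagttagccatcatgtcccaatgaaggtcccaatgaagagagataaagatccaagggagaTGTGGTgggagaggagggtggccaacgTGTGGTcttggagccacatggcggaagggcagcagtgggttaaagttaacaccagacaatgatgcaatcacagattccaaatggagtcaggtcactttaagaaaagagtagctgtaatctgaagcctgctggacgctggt
Mcpt8, chr14:56085148-56085447, minus strand: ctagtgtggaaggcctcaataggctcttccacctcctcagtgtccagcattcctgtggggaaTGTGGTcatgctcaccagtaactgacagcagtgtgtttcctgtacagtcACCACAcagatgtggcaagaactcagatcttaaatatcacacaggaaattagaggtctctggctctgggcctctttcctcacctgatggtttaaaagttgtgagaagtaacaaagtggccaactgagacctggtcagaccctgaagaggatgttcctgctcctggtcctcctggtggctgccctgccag
The Dlk1 window held 1 match, and those of Serpinf1 and Mcpt8 held 2 each. These counts are too few to set the lists apart from other genes and say nothing of binding.

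**Figure D4:**
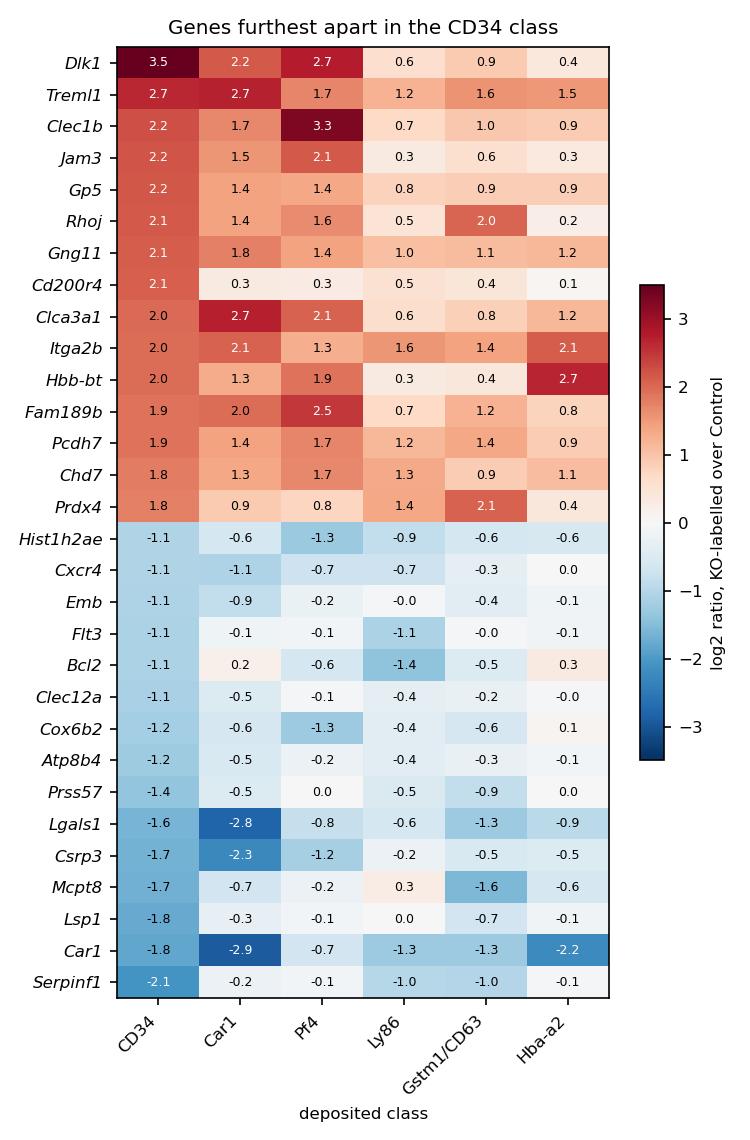
Log2 ratio of the library labelled Runx1 KO over Control (color and printed value, 10 CPM added to both) for the 15 highest and 15 lowest genes of the CD34 class, in the 6 compared classes. Treml1, Clec1b, Itga2b and Gp5 are positive in each class shown, whereas Cd200r4 stands at 2.10 in CD34 and between 0.06 and 0.53 elsewhere, where its level is low.

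The same genes in the other classes show which differences the CD34 class shared. Treml1 had log2 ratios of 2.65 in CD34, 2.69 in Car1, 1.72 in Pf4, 1.21 in Ly86, 1.57 in Gstm1/CD63 and 1.52 in Hba-a2. Lgals1 had -1.63 in CD34 and -2.81 in Car1. Runx1 had 1.41 in CD34 and a median of 1.34 over the other 5 classes, Itga2b 1.97 and 1.55 and Csf2rb 1.07 and 1.15. Pim1 had 1.24 and 1.67, Socs3 1.48 and 0.77 and Cpa3 1.06 and 0.41. Serpinf1 had a log2 ratio of -2.08 in CD34 and a median of -0.19 over the other 5 classes. Without the added 10 CPM its ratio was 0.0557 in CD34, 0.0879 in Car1, 0.120 in Gstm1/CD63 and 0.414 in Ly86, the class where it was most abundant, at 25.2 CPM in the library labelled Runx1 KO and 60.9 CPM in Control. Lsp1 had -1.76 in CD34 and a median of -0.13, and ratios without the added CPM of 0.154 in CD34, 0.312 in Gstm1/CD63 and 1.01 in Ly86. These class values come from the same pair of libraries and are set side by side only.

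The S phase, G2/M and ribosome gene lists had median log2 ratios from -0.12 to 0.03, beside -0.0015 for all measured genes. Of 17 S phase genes and 14 G2/M genes, 0 were past 1.5-fold, with median log2 ratios of -0.12 and -0.0036. Of all measured genes 2.85% were this much higher and 1.37% lower, and counts of 0 in lists this short lie near that share. Of 13 ribosome biogenesis genes and 80 cytosolic ribosomal protein genes 0 were past 1.5-fold either. Among 6 G1 genes Ccnd2, the cyclin D2 gene, was lower at 108 and 193 CPM, and Cdkn2d, a Cdk inhibitor gene, higher at 49.2 and 29.1 CPM. The 5 heat-shock genes and the 4 immediate-early genes had medians of -0.18 and 0.37 with 0 members past 1.5-fold. The 4 measured Toll-like receptor pathway genes lay between 0.00 and 0.12 on the log2 scale, and the 3 NF-kB genes had a median of 0.20. Of 6 interferon response genes Ifitm1 was lower, at 203 and 367 CPM, while Ifitm3 had 375 and 297 CPM. Among 5 Bcl2 family genes Bcl2 alone was past 1.5-fold.

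**Figure D5:**
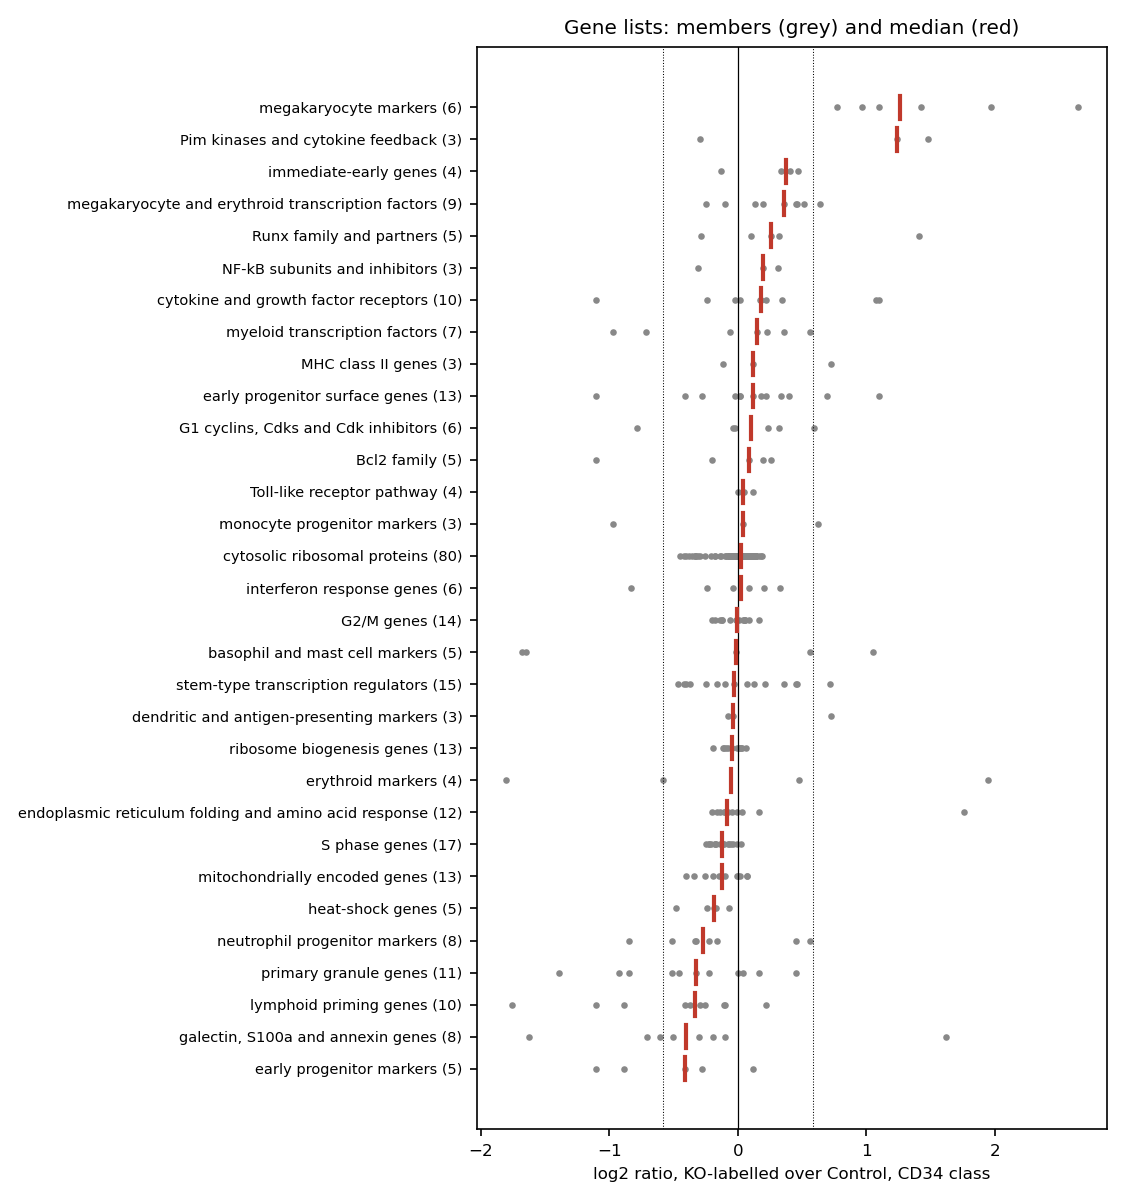
Log2 ratio of the library labelled Runx1 KO over Control in the CD34 class for the measured members of each gene list with at least 3 of them (grey points; number in brackets) and the list median (red bar), with dotted lines at 1.5-fold. The medians of megakaryocyte markers and Pim kinase genes lie to the right, those of lymphoid priming and primary granule genes to the left by less than 1.5-fold, and growth lists cluster near 0.

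Markers of neutrophil progenitors and of basophils and mast cells were abundant in the class, and those of mature lymphoid, macrophage and stromal cells low. The 10 neutrophil progenitor markers summed to 6276 and 7698 CPM, the 8 basophil and mast cell markers to 1121 and 682 CPM, the 9 monocyte progenitor markers to 247 and 299 CPM and the 9 dendritic and antigen-presenting markers to 246 and 234 CPM, where the 5 early progenitor markers summed to 589 and 753 CPM. The dendritic list also had 268 and 269 CPM in Ly86, 199 and 184 CPM in Car1 and 138 and 154 CPM in Hba-a2. It thus did not single the CD34 class out. The monocyte list summed to 2374 and 2207 CPM in Ly86. The 6 T, NK and innate lymphoid markers summed to 150 and 296 CPM, of which Nkg7 gave 149 and 292 CPM. All 4 B cell markers had 0 UMIs in the library labelled Runx1 KO and 2 of 4 had 0 in Control. The 8 lymphoid progenitor markers summed to 6.03 and 16.98 CPM, the 5 macrophage markers to 2.18 and 4.76 CPM and the 6 stromal and endothelial markers to 6.64 and 2.53 CPM. The 9 mature neutrophil markers summed to 122 and 47.4 CPM. Only 2 of them, S100a8 and S100a9, were measured, and both were at least 1.5-fold higher, where 2.85% of all measured genes were. Both reached 30 CPM in the library labelled Runx1 KO only, so they could count as higher but not as lower. A UMI of S100a8 was found in 13.2% and 5.17% of thinned class cells against 13.3% and 3.31% of Hba-a2 class cells. For S100a9 the shares were 17.3% and 7.66% against 17.3% and 7.72%. The mature neutrophil list summed to 888 and 72.4 CPM in Hba-a2, 544 and 32.7 CPM in Ly86 and 170 and 33.4 CPM in Car1. Whether the Hba-a2 class gives a measure of free RNA for these genes was not tested. The 12 erythroid markers summed to 290 and 277 CPM. The megakaryocyte list also differed in the Hba-a2 class, at 161 and 19.5 CPM, which is below its level in the CD34 class in either library; the part of free megakaryocyte RNA in the CD34 values was not tested.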

How the data were processed

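The authors deposited a matrix of raw UMI counts over 31053 genes. Their deposited annotation gives UMI and gene counts of every cell, its mitochondrial fraction, its size factor (a ratio), and 2 other values, the library and class names. Cell Ranger and mm10 are named in the submitters' processing notes; how classes were assigned is not stated there or in the labels, and the library called wild type was taken as Control. UMIs were summed per class and library, as CPM, in Python 3.11.15 with numpy 2.4.6, pandas 2.3.3 and scipy 1.17.1. A pseudocount of 10 CPM was added for log2 ratios, and genes needed 30 CPM in the higher group and 100 UMIs. The other classes together are their equally weighted mean. Ratios carry exact Poisson and shares Clopper-Pearson 95% intervals. Locations come from GENCODE M21 (31011 identifiers matched). No doublet caller was run; leaving out the 5% of cells with most UMIs is an alternative. The intervals were tried on simulated Poisson counts. These leave out the uneven spread of UMIs over cells, so they check the calculation only. Factors from edgeR 4.0.16 (TMM) served as an alternative scaling.

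Named genes were, by log2 ratio, the 15 highest and 15 lowest between libraries, the 10 highest over the other classes, the 6 furthest each way from their median in the other classes, the markers, Runx1, and up to 4 members per list. Some genes this rule names are not reported here. The members and lists were chosen with earlier results of these data known.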

Additional observations from a re-analysis of the deposited data

Results flagged for a closer look

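Slpi, a secreted protease inhibitor gene (chromosome 2, 164354070 to 164389095), ran opposite ways in 2 classes. In the CD34 class it had 14.7 CPM in the library labelled Runx1 KO and 33.0 CPM in Control, a log2 ratio of -0.80. In the Pf4 class it had 121 CPM and 29.96 CPM in Control, a log2 ratio of 1.71. With 1 library per genotype the difference was not tested.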

How the results depend on the processing

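No paired analysis was possible because each genotype had 1 library, and leaving out a replicate was impossible for the same reason. Of 58 genes chosen by the naming rule and at least 1.5-fold apart between the libraries, every one kept its direction under each alternative except Elane, whose log2 ratio was 0.021 in cells under 1000 CPM of Mpo. Pf4, named outside that rule and after its values were seen, had a ratio of 0.718 in those cells. Without class cells high for a lineage list, 48 stayed past 1.5-fold, and 81 of the 133 higher and 43 of the 64 lower genes did. The count of higher genes was 238 with a minimum of 10 CPM and 50 UMIs and 260 with no minimum; the count of lower genes was 110 and 123 under these, 38 with a pseudocount of 30 and 123 in cells under 1000 CPM of Mpo, an alternative added after seeing the data. Genes higher in the class than in the others numbered 88 with a pseudocount of 30 and 87 against all other cells; genes lower numbered 78 with a pseudocount of 30, 195 with the smaller minimum and 228 with none. TMM and median-of-ratios scaling moved the median over genes to -0.13 and -0.11 in the library labelled Runx1 KO and -0.09 and -0.11 in Control for the class over the others, and left 106 and 113 genes higher. Without the Pf4 and Prss34 classes the share was 11.1% in the library labelled Runx1 KO and 17.0% in Control. Why these values moved was not tested beyond what each alternative leaves out. Depth limits genes of few UMIs, such as Clec1b in Control.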

Other observations

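Some genes under the 30 CPM minimum, chosen after their values were seen, differed as well. Notch1, the receptor that starts T cell fate, had 7.86 CPM in the library labelled Runx1 KO and 24.6 CPM in Control. Gp9, a subunit of the platelet von Willebrand factor receptor, had 28.2 CPM and 6.94 CPM in Control. Csf2rb2, the mouse IL-3 receptor beta chain gene beside Csf2rb and alike in sequence, had 18.3 CPM and 5.20 CPM in Control. Mycn, a transcription factor gene of the Myc family, had 24.7 CPM and 10.6 CPM in Control. Ly6c2, a monocyte surface gene, had 0.961 CPM (11 UMIs) and 11.9 CPM (267 UMIs) in Control.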
